A study of Mus musculus with 6 samples.

Results

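The NFAT family of transcription factors was examined in whole mouse lung after endothelial loss of one member, Nfat5. Its 5 genes, Nfat5, Nfatc1, Nfatc2, Nfatc3 and Nfatc4, were found by gene symbol among the 24704 genes named on the arrays, and each was measured by 1 probe set. Biotin-labelled RNA from 6 lungs was hybridised to single-colour Affymetrix arrays. The EC knockout group held 3 lungs from Nfat5(EC)-/- mice, which had received 1 mg tamoxifen per day by intraperitoneal injection on 5 days. The control group held 3 lungs from Nfat5fl/fl mice given miglyol, the solvent. Animals of both groups were males and females aged 10 to 12 weeks at that treatment, recovered for 2 to 3 weeks, and were then kept in hypoxia for 7 days. Genotype and tamoxifen therefore differed together, and no lung from normal oxygen was compared. The sources used here do not give the Cre driver, the deleted part of Nfat5 or the sex of each animal, and none says whether the probes lie in the deleted part. The design names 4 mice per group and states that preparations with contaminating tissue or a weak expression response to hypoxia were left out.

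NFAT proteins share a DNA-binding domain of the Rel type with the NF-kappaB factors. The members NFATc1 to NFATc4 wait in the cytoplasm in a phosphorylated form. When calcium rises, calmodulin activates the phosphatase calcineurin, which strips their phosphates and lets them enter the nucleus, and kinases such as GSK3, DYRK and casein kinase 1 send them out again. NFAT5, also called TonEBP, is not controlled by calcineurin and is best known for switching on osmoprotective genes in hypertonic surroundings. In vessels, NFATc factors are known for valve development, endothelial activation and smooth muscle gene expression.

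Values are log2 expression, on which 1 unit is a 2-fold difference, and levels of different genes cannot be set against each other on this scale. The median level was 2.98 and the lower quartile 2.02 on each array. The lung markers Sftpc, Sftpb, Scgb1a1 and Ager, added after their values were seen, stood between 9.39 and 12.5 on every array. Arrays correlated across genes at 0.916 to 0.939 within the knockout group and at 0.968 to 0.970 within the control group. Knockout and control arrays were compared with limma, and p-values were adjusted by Benjamini-Hochberg across the 24704 genes, with 0.05 as the threshold. By this test 3083 genes were higher in the knockout (12.5% of those tested) and 3209 lower (13%), or 25.5% in either direction. These counts changed by more than 1.5 times without control replicate 1 (1526 higher, 1615 lower) and without control replicate 3 (1391 higher, 1491 lower). The female-specific transcript Xist reached 8.22 on control replicate 1, while the other arrays lay between 2.03 and 2.37. The Y-linked gene Kdm5d stood at 1.96 to 2.16 on the knockout arrays, against 1.57, 4.02 and 3.94 on control replicates 1, 3 and 4. Uty, also on the Y chromosome, stood at 2.05, 3.29 and 4.30 on knockout replicates 1, 3 and 4, against 2.22, 4.90 and 4.48 on the same control replicates. Eif2s3y, a further Y-linked gene, stood at 2.66, 3.43 and 3.97 on these knockout replicates, against 1.63, 4.80 and 4.59 on these control replicates. The control arrays thus differed in each of these genes, and the knockout arrays in Uty and Eif2s3y but little in Xist or Kdm5d. Kdm5d was also lower on every knockout array than on control replicates 3 and 4. The part of sex in the results was not tested. The labels number the samples of a group but do not tie each to an animal, so the p-values measure the spread between these samples, which may in part be technical.

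The family split in direction. Nfat5 and Nfatc3 fell in the knockout lungs, Nfatc1 rose by a smaller amount that passed the threshold narrowly, and Nfatc2 and Nfatc4 did not pass. Thus 2 of 5 members were lower and 1 was higher, beside a background of 13% lower and 12.5% higher. Of the 2 lower members, Nfat5 was the gene targeted. All 5 members lay above the median of mean level, at the 59.8 to 89.6 percentile. Tested alone, the 12352 genes above that median held 2880 higher and 2908 lower, a larger share than over all genes. The gene lists below are set beside the share over all genes, which is not matched to their level. The groups did not overlap for 4 of 5 members, where they did not overlap for 41.9% of all genes.

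**Figure D1:**
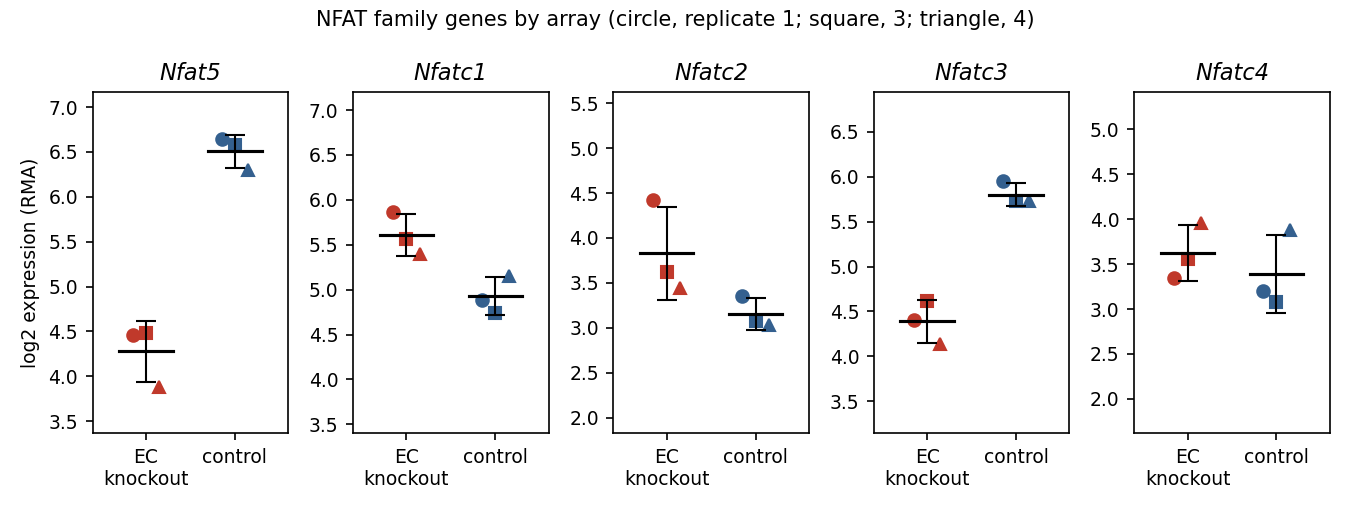
Each panel plots 1 NFAT family gene, with the log2 expression of each array on the y axis and the EC knockout group left of the control group. Bars show the group mean and SD (n = 3 each), and every panel spans the same number of log2 units. Knockout arrays lie below all controls for Nfat5 and Nfatc3 and above all controls for Nfatc1 and Nfatc2, and the groups overlap for Nfatc4.

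Nfat5 (Entrez gene 54446, chromosome 8) encodes the tonicity-responsive member and was the gene targeted. Its level was 4.46, 4.48 and 3.89 in knockout replicates 1, 3 and 4, against 6.65, 6.58 and 6.30 in control replicates 1, 3 and 4. The groups were 1.82 log2 units apart at their nearest arrays, and replicate 4 was the lowest of both groups. Set against the mean of the controls, the knockout lungs held 24.3%, 24.6% and 16.2% of the Nfat5 signal. The log2 fold change was -2.23 ± 0.23 (SE, n = 3 per group; limma, adjusted p = 0.0015), with a 95% interval of -2.75 to -1.72. Of all genes, 0.267% had a log2 fold change as low or lower, so genes that were not targeted fell as far. The call of Nfat5 held under the 15 alternative settings that could change its value or its adjusted p, between -2.33 and -1.86. Several of these, such as the filters on level, the intensity trend and the replicate block, left the value at -2.23 and changed the adjusted p only. As these were whole lungs, fewer cells of a type and less RNA per cell cannot be told apart.

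Endothelial cells were the cells targeted, and their markers are given beside the fall of Nfat5. Of 16 pan-endothelial genes 5 were higher (12.5% over all genes) and 6 lower (13%). Their median log2 fold change was 0.15, against 0.04 over all genes tested. The mean level of the 16 genes was 6.66 to 6.96 in knockout lungs and 6.92 to 7.12 in control lungs, so the groups overlapped. The clotting factor Vwf and the secreted factor Egfl7 were among those higher. Cdh5, the cadherin of endothelial junctions, and Tek, the angiopoietin receptor, were among those lower. Sox18, Eng and Cldn5 were higher too, and Emcn, Erg, Pecam1 and Ptprb lower. The higher genes spanned 1416 to 36075 bases except Vwf (133732), and the lower genes 42892 to 227432. With the trend by gene length removed from each array, 5 were higher and 4 lower. Emcn (limma, adjusted p = 0.071) and Erg (0.0625) then did not pass. Without control replicate 3 the count was 2 higher and 4 lower, and without control replicate 1 it was 2 higher and 5 lower. Emcn also did not pass without control replicate 4 (adjusted p = 0.072) or knockout replicate 3 (0.056), and its log2 fold change of -1.62 was -1.07 without knockout replicate 1. The part of endothelial content in the Nfat5 value was not tested.

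Nfatc3 (Entrez gene 18021), the calcineurin-dependent member also called NFAT4 or NFATx, lies on chromosome 8 like Nfat5, with 20 measured protein-coding genes between them in the RefSeq order. Its level was 4.41, 4.62 and 4.14 in knockout replicates 1, 3 and 4, against 5.95, 5.72 and 5.73 in control replicates 1, 3 and 4. All knockout arrays were below all control arrays, by 1.11 log2 units at the nearest. The log2 fold change was -1.41 ± 0.20 (SE, n = 3 per group; limma, adjusted p = 0.0028), with a 95% interval of -1.87 to -0.96. This left 37.5% of the control signal, and 3.93% of all genes had a log2 fold change as low or lower. The call held under the same 15 alternatives, between -1.53 and -1.07. The interval of Nfatc3 overlapped that of Nfat5, and the difference between the 2 falls was not tested.

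Nfatc1 (Entrez gene 18018, chromosome 18) is the member needed for heart valve formation and for osteoclasts, and it is induced in activated lymphocytes. Its level was 5.86, 5.56 and 5.40 in knockout replicates 1, 3 and 4, against 4.89, 4.74 and 5.16 in control replicates 1, 3 and 4. The groups were separate, but only by 0.24 log2 units, a distance close to the SD within each group (0.23 in knockouts and 0.21 in controls). The log2 fold change was 0.68 ± 0.21 (SE, n = 3 per group; limma, adjusted p = 0.044), with a 95% interval of 0.20 to 1.15. The call was lost without control replicate 1 (0.66, adjusted p = 0.13), control replicate 3 (0.58, 0.17), control replicate 4 (0.79, 0.058), knockout replicate 1 (0.55, 0.096) or knockout replicate 3 (0.70, 0.073). It held without knockout replicate 4 (0.78, adjusted p = 0.038). Use of Xist as a covariate gave nearly the values found without control replicate 1 (0.66, adjusted p = 0.14), the one array where Xist was high, and is not a separate check.

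Nfatc2 (Entrez gene 18019, chromosome 2), also called NFAT1 or NFATp, is a member abundant in T cells. Its level was 4.42, 3.63 and 3.44 in knockout replicates 1, 3 and 4, against 3.36, 3.07 and 3.03 in control replicates 1, 3 and 4. Knockout replicate 1 stood well above the other arrays, and the nearest arrays of the 2 groups were 0.08 log2 units apart. The log2 fold change was 0.67 ± 0.27 (SE, n = 3 per group), with a 95% interval of 0.06 to 1.29, and it did not pass after adjustment (limma, adjusted p = 0.10). Without knockout replicate 1 the value was 0.38 (adjusted p = 0.23), so that array carried a large share of the difference.

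Nfatc4 (Entrez gene 73181, chromosome 14), also called NFAT3, is a member known from muscle and nerve. Its level was 3.35, 3.56 and 3.96 in knockout replicates 1, 3 and 4, against 3.20, 3.08 and 3.88 in control replicates 1, 3 and 4. Replicate 4 was the highest array of each group, and the groups overlapped. The log2 fold change was 0.24 ± 0.27 (SE, n = 3 per group; limma, adjusted p = 0.58), with a 95% interval of -0.37 to 0.84. With 3 arrays per group, neither a fall nor a rise of Nfatc4 within that interval can be excluded. The value ranged from 0.07 without knockout replicate 4 to 0.48 without control replicate 4.

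**Figure D2:**
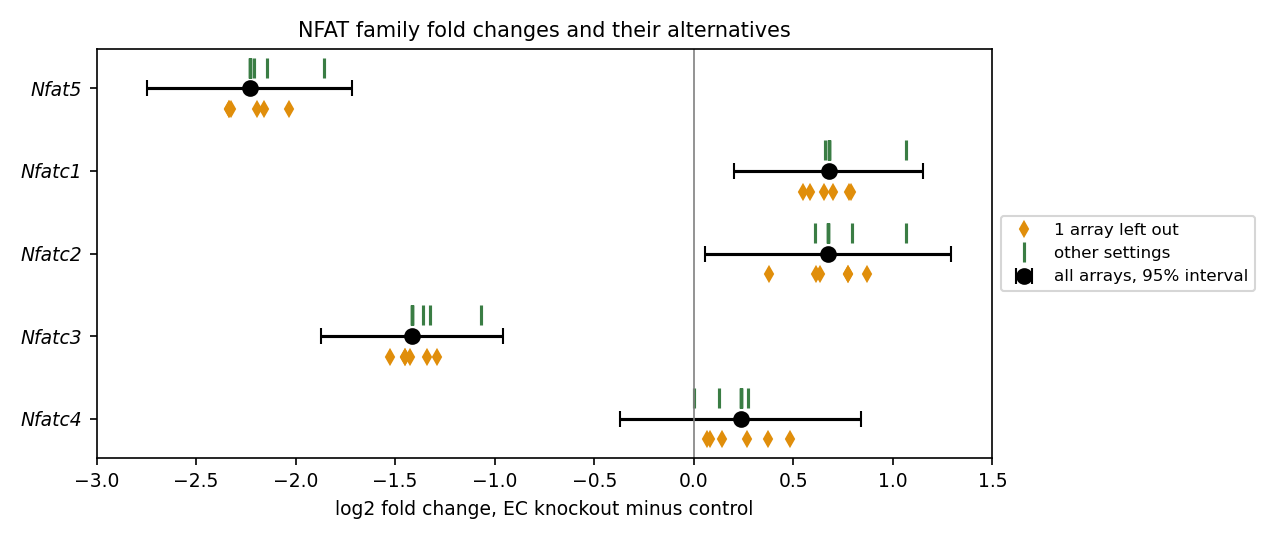
The x axis gives the log2 fold change of each NFAT family gene, EC knockout minus control. Black circles with bars are the values from all arrays with their 95% intervals, orange diamonds leave out 1 array, and green ticks are the other settings. Nfat5 and Nfatc3 lie below 0 in every setting, Nfatc1 and Nfatc2 above 0, and the interval of Nfatc4 crosses 0.

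Gene length moved with the calls in these arrays. With protein-coding genes cut into 5 equal bins by length, 5.41% of the longest bin were higher and 31.4% lower, and of the shortest bin 14.6% were higher and 2.26% lower, so the members were also read with the length trend removed from each array. The genomic span was 86.1 kb for Nfat5, 106.9 kb for Nfatc1, 125.2 kb for Nfatc2, 71.7 kb for Nfatc3 and 9.1 kb for Nfatc4. With the trend removed, over 19686 protein-coding genes, Nfat5 stood at -1.86 (limma, adjusted p = 0.0025) and Nfatc3 at -1.07 (0.0058). Nfatc1 stood at 1.07 (adjusted p = 0.0086), and Nfatc2 also at 1.07, now past the threshold (0.019). Nfatc4, the shortest gene of the family, stood at -0.001 (adjusted p = 0.998). The 4 long members lay at the 83.1 to 91.2 percentile of length among protein-coding genes, and Nfat5 and Nfatc3 were lower and Nfatc1 higher at both settings.

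**Figure D3:**
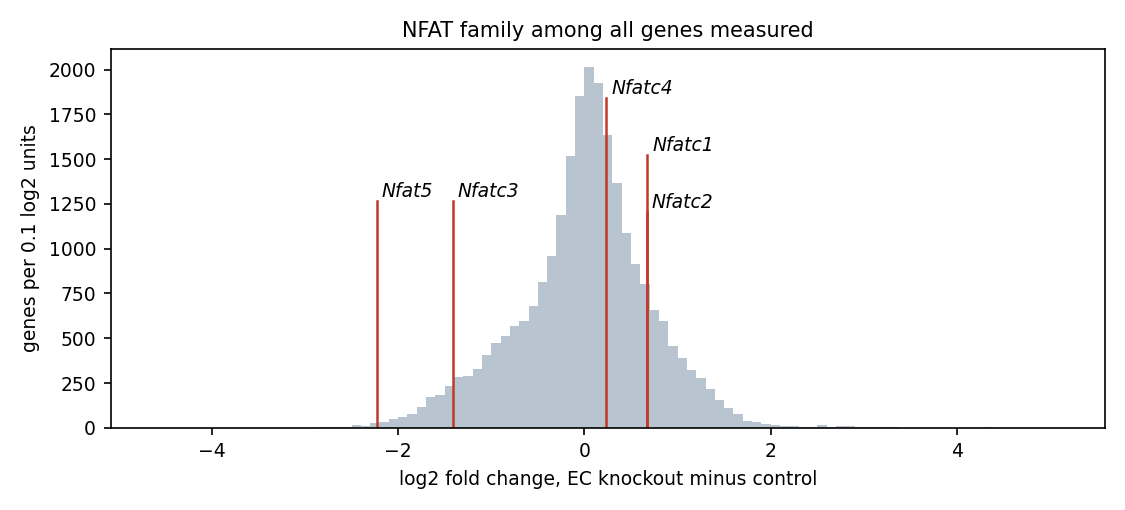
The histogram shows the log2 fold changes (x axis, EC knockout minus control) of all 24704 genes, with the number of genes per bin on the y axis. Red lines mark the 5 NFAT family genes; their height carries no value. Nfat5 at -2.23 lies in the far left tail, Nfatc3 at -1.41 on the left shoulder, and the other 3 between 0.24 and 0.68.

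Lymphocytes are a source of Nfatc1 and Nfatc2 in tissue, so their markers are given beside these genes. For the marker counts here, 12.5% of all genes tested were higher and 13% lower. Of 9 measured T cell markers 1 was higher (Cd2) and 1 lower (Cd3g), and the mean level of the list was 3.22 to 3.44 in knockout lungs and 3.01 to 3.48 in control lungs. The call of Cd2 was lost without control replicate 1 (limma, adjusted p = 0.052), 3 (0.060) or 4 (0.065), and that of Cd3g without control replicate 1 (0.058) or 3 (0.060). Of 7 measured B cell markers 2 were higher (Fcmr and Cd79a) and 1 lower (Cd22), at 3.69 to 4.33 in knockout lungs and 3.99 to 4.42 in control lungs. Without control replicate 1, control replicate 3 or control replicate 4, 0 B cell markers were higher and 0 lower, with an adjusted p of 0.058 to 0.18 for these genes, and the same counts were found without knockout replicate 1. The levels of both lists overlapped between the groups. Thymus, which the submitters name as a possible contaminant, had 1 higher (Foxn1) and 1 lower gene (Psmb11) of 9, at 2.18 to 2.41 in knockout lungs and 2.23 to 2.70 in control lungs. The thymocyte gene Rag1 stood at 1.78 to 1.93 in knockout lungs, against 3.53, 1.97 and 1.66 in control replicates 1, 3 and 4. Dntt, also of thymocytes, stood at 1.70 to 2.09 in knockout lungs, against 2.72, 2.04 and 1.87 in these controls, and Themis at 1.61 to 2.28, against 3.17, 2.75 and 2.03. All 3 were thus highest on control replicate 1. Neither thymus gene that passed did so without control replicate 1 or control replicate 3 (adjusted p = 0.072 to 0.12). Smooth muscle and pericyte markers, beside Nfatc4, were higher at 2 of 10 (Notch3 and Cspg4) and lower at 1 (Abcc9). Their mean level was 5.67 to 5.99 in knockout lungs and 5.12 to 5.61 in control lungs, with no overlap, and Abcc9 did not pass without knockout replicate 4 or any 1 of the controls (adjusted p = 0.059 to 0.090). The part of these cells in the NFAT values was not tested.

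Promoter sequences are shown for the members with a window in the RefSeq table (4 of 5, mouse assembly GRCm38.p6) because NFAT proteins bind a short core, GGAAA. Each line gives the bases upstream of the annotated start of the gene in the direction of transcription, 215 bases for Nfat5 and 250 for the others. Capitals mark GGAAA or its reverse complement TTTCC.
Nfat5, chr8:107293220-107293434, plus strand: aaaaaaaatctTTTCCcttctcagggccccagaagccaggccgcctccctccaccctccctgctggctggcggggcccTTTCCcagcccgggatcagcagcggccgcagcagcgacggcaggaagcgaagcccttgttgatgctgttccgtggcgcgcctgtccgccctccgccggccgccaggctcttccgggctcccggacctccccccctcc
Nfatc2, chr2:168601658-168601907, minus strand: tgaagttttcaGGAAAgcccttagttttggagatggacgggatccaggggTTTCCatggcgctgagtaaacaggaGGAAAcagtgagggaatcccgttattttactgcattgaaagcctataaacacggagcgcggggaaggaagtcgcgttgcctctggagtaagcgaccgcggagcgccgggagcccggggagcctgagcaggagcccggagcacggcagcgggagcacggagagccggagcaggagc
Nfatc3, chr8:106058568-106058817, plus strand: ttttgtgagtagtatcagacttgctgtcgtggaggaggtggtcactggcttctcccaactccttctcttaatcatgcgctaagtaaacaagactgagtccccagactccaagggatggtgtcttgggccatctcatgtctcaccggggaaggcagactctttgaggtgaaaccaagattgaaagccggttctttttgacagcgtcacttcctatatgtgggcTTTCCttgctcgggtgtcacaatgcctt
Nfatc4, chr14:55824545-55824794, plus strand: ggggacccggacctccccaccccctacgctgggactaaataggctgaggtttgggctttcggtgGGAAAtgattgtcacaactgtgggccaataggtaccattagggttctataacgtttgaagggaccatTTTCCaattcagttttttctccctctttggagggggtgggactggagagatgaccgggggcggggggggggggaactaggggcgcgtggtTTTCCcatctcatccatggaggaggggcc
The core, searched on both strands, occurred 2 times upstream of Nfat5, 3 times for Nfatc2, 1 time for Nfatc3 and 3 times for Nfatc4. Among all 32851 promoter windows of 250 bases, 55.6% held it at least once. The longer form TGGAAA, which contains the core, occurred 1 time for Nfatc2 and 1 time for Nfatc4 and was found in 18.6% of all windows. The Nfat5 stretch was rich in G and C (69.8%, where the median window had 52.4%), and that of Nfatc3 held 49.6%. These matches describe letters and not binding.

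Calcineurin is the phosphatase that activates NFATc1 to NFATc4. Of 5 genes for its subunits 2 were lower (13% over all genes) and 0 higher (12.5%). The median log2 fold change was -0.39 beside 0.04 over all genes. Both lower genes encode catalytic subunits. Ppp3cb had 4.95, 4.64 and 4.49 in knockout replicates 1, 3 and 4, against 6.17, 6.004 and 5.90 in control replicates 1, 3 and 4, with no overlap (log2 fold change -1.33 ± 0.20 SE; limma, adjusted p = 0.0031). Ppp3ca had 6.29, 6.62 and 5.66 in knockout lungs, against 7.58, 7.496 and 7.10 in control lungs, also without overlap (-1.20 ± 0.27, adjusted p = 0.014). Ppp3ca did not pass without control replicate 1 (adjusted p = 0.063) or control replicate 3 (0.061), while Ppp3cb passed with each array left out. The regulatory subunit Ppp3r1 stood at -0.39 ± 0.35 and did not pass. Its knockout replicates 1, 3 and 4 had 5.25, 4.96 and 3.75, and without the low replicate 4 the value was 0.06. The third catalytic gene, Ppp3cc, stood at -0.37 ± 0.23 and did not pass, with -0.18 without control replicate 1 and -0.02 with the length trend removed. The remaining subunit gene, Ppp3r2, lay below the lower quartile of 2.02 in both groups.

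Proteins that restrain or anchor calcineurin moved both ways, with 2 of 11 measured genes higher (12.5% over all genes) and 2 lower (13%). The anchor Akap5, which holds calcineurin and protein kinase A at the membrane, fell by 1.62 log2 units (SE 0.35; limma, adjusted p = 0.011), and Rcan2, a calcineurin inhibitor, by 0.77 (SE 0.19; 0.021). Akap1, an anchor of the mitochondrial surface, rose by 0.78 ± 0.18 (adjusted p = 0.014), and Cabin1, a calcineurin-binding inhibitor, by 0.76 ± 0.22 (0.033). All 4 calls were lost without control replicate 3 (adjusted p = 0.055 to 0.12), and those of Rcan2, Cabin1 and Akap1 also without control replicate 1 (0.057 to 0.12). Rcan2 and Cabin1 did not pass without control replicate 4 (0.058 and 0.059), nor Cabin1 without knockout replicate 1 (0.057) or 4 (0.079). Rcan1, an inhibitor that is itself a classical target of NFATc factors, stood at 5.90, 6.27 and 6.02 in knockout replicates 1, 3 and 4 and at 5.58, 5.67 and 5.92 in control replicates 1, 3 and 4. These ranges overlapped, and its log2 fold change of 0.34 ± 0.20 did not pass (adjusted p = 0.26). With the length trend removed it was 0.69 and passed (adjusted p = 0.033).

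Upstream of calcineurin, genes of the calcium signal were higher at 4 of 11 measured (12.5% over all genes) and lower at 0 (13%). Their median log2 fold change was 0.47. Calm3, one of the calmodulin genes, had 7.83, 7.78 and 7.82 in knockout replicates 1, 3 and 4, against 6.39, 6.65 and 6.95 in control replicates 1, 3 and 4 (1.15 ± 0.20 SE; limma, adjusted p = 0.0053). Orai1, the pore of the store-operated calcium channel, rose by 0.98 ± 0.19 (adjusted p = 0.0073), and its relative Orai3 by 1.04 ± 0.26 (0.021). Plcg2, a phospholipase that starts calcium release, rose by 0.69 ± 0.20 (adjusted p = 0.036). The genes that did not pass included the calcium sensors Stim1 at 0.36 and Stim2 at -0.67, and Calm2 at -0.68. Without knockout replicate 4, Stim1 stood at 0.15, Stim2 at -0.41 and Calm2 at -0.99, which passed (adjusted p = 0.022), and Stim2 passed without knockout replicate 1 (-0.88, 0.044). Orai3 and Plcg2 lost their calls without control replicate 1 (adjusted p = 0.090 and 0.13) or control replicate 3 (0.083 and 0.086), which left 2 of 11 higher. Plcg2 also did not pass without control replicate 4 (0.084), knockout replicate 1 (0.059) or knockout replicate 4 (0.083).

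Kinases and carriers that return NFATc proteins to the cytoplasm were split, with 4 of 14 higher (12.5% over all genes) and 4 lower (13%). The 4 higher genes spanned 9594 to 33642 bases and the 4 lower genes 36085 to 143334. The count stayed at 4 higher and 4 lower with the length trend removed. Among the DYRK kinases, Dyrk1b rose by 1.17 ± 0.18 log2 units (limma, adjusted p = 0.0034), and Dyrk1a stood at -1.27 ± 0.21 (0.0041). Among the GSK3 genes, Gsk3a rose by 1.12 ± 0.20 (adjusted p = 0.0053), while Gsk3b stood at -0.84 ± 0.37 and did not pass (0.13). Gsk3b was -0.36 without knockout replicate 4, -0.46 with the length trend removed, and past the threshold without knockout replicate 1 (-1.17, adjusted p = 0.040). Among casein kinases, Csnk1d rose by 0.65 ± 0.17 (adjusted p = 0.025) and Csnk1a1 stood at -1.14 ± 0.27 (0.015). Csnk1e at 0.26, Dyrk2 at 0.06 and Dyrk3 at -0.31 did not pass. Lrrk2, a kinase that holds NFAT in the cytoplasm, had 4.23, 4.97 and 3.76 in knockout replicates 1, 3 and 4, against 6.31, 6.31 and 6.33 in control replicates 1, 3 and 4 (-1.996 ± 0.29; adjusted p = 0.0029). The controls of Lrrk2 were nearly equal, and all knockouts lay below them. Xpo1, the exportin that carries NFAT out of the nucleus, stood at -1.32 ± 0.25 (adjusted p = 0.0065), and Homer3, a scaffold that competes with calcineurin for NFAT, rose by 1.07 ± 0.21 (0.0072). Csnk1a1 and Csnk1d did not pass without control replicate 1 (adjusted p = 0.069 and 0.085) or control replicate 3 (0.057 and 0.10), nor Csnk1d without control replicate 4 (0.061). Over the 4 calcineurin lists together, 41 genes were measured, of which 10 were higher, 8 lower and 23 did not pass. Over all genes tested, 12.5% were higher and 13% lower. Of the 12352 genes above the median of mean level, tested alone, 2880 were higher and 2908 lower, a larger share of each. The lists were not matched to either background in level, so these counts do not set the pathway apart.

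**Figure D4:**
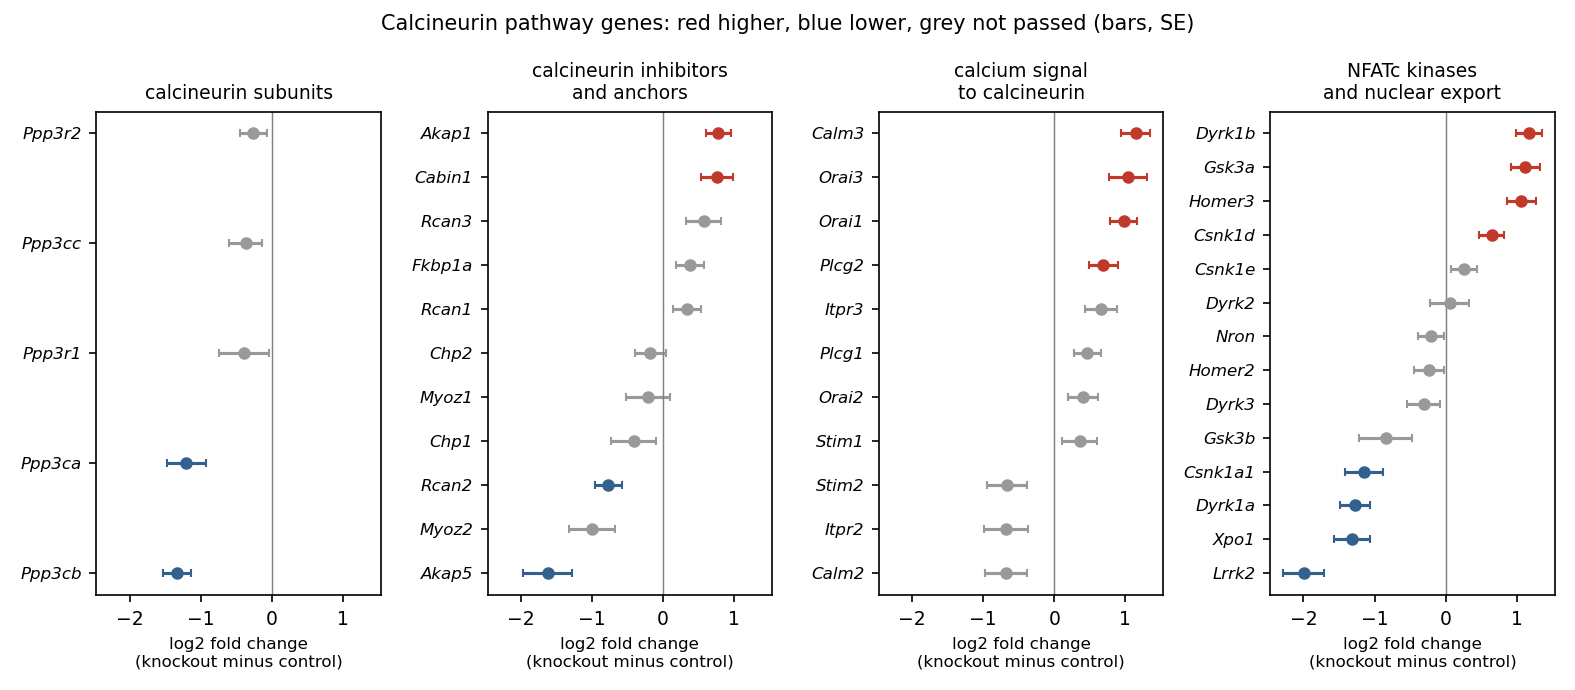
Each panel is 1 of the 4 lists of the calcineurin pathway, with the log2 fold change (EC knockout minus control) on the x axis and a gene per row; bars are the SE. Red genes were higher, blue lower, and grey did not pass. Calcineurin subunits have blue but no red points, calcium signal genes red but no blue, and the other lists have both.

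NFATc target genes were mostly not past the threshold, with 1 of 18 higher (12.5% over all genes), 1 lower (13%) and 16 not passed. Their median log2 fold change was -0.03. The cytokine gene Tnf had 4.11, 3.95 and 3.13 in knockout replicates 1, 3 and 4, against 2.64, 2.78 and 2.79 in control replicates 1, 3 and 4 (0.99 ± 0.27 SE; limma, adjusted p = 0.026). Ptgs2, the inducible cyclooxygenase, had 3.52, 3.56 and 2.99 in knockout lungs, against 4.17, 4.10 and 4.71 in control lungs (-0.97 ± 0.25; 0.021). Both calls were lost without any 1 of the control arrays (adjusted p = 0.050 to 0.095), that of Tnf also without knockout replicate 1 (0.057) or 3 (0.068), and that of Ptgs2 without knockout replicate 4 (0.051). The bone resorption genes Ctsk, at -0.62, and Acp5, at 0.76, did not pass, but Ctsk passed with the length trend removed (-0.83, adjusted p = 0.022) and Acp5 without knockout replicate 1 (1.11, 0.012), while Acp5 was 0.47 without knockout replicate 3. Without knockout replicate 1 the list's count was 1 higher (Acp5) and 3 lower (Ptgs2, F3 and Vcam1), and without control replicate 1 it was 0 higher and 0 lower. Of the 18 genes, 6 lay below the lower quartile of the arrays in both groups, so a change in them may have been missed.

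Regulators that act on NFAT5 were lower at 6 of 16 (13% over all genes) and higher at 3 (12.5%). Their median log2 fold change was -0.39. Atm, the DNA damage kinase that aids NFAT5 activity, had 2.09, 2.13 and 2.20 in knockout replicates 1, 3 and 4, against 4.04, 3.98 and 3.83 in control replicates 1, 3 and 4 (-1.81 ± 0.18 SE; limma, adjusted p = 0.0014). As the knockout values of Atm were near 2.02, the lower quartile, how far it fell is uncertain. Akap13, an exchange factor linked to NFAT5 induction, stood at -1.44 ± 0.24 (adjusted p = 0.0041). The p38 activators went opposite ways, Map2k6 at -1.62 ± 0.29 (adjusted p = 0.0052) and Map2k3 at 1.11 ± 0.23 (0.0094), while the p38 kinase gene Mapk14 did not pass (0.24 ± 0.21, and 0.12 without knockout replicate 1). Prkaca, the catalytic subunit of protein kinase A, rose by 1.06 ± 0.20 (adjusted p = 0.0070), and Ccm2, a scaffold of the p38 route in osmotic stress, by 0.81 ± 0.22 (0.028). The other lower genes were Pik3ca, Dhx9 and Nup88. Without control replicate 3 the count was 2 higher and 3 lower, with Pik3ca, Dhx9, Nup88 and Ccm2 past the threshold no longer (adjusted p = 0.069 to 0.12). Without control replicate 1 or control replicate 4 it was 2 higher and 4 lower, with Pik3ca, Dhx9 and Ccm2 lost (0.051 to 0.082). Ccm2 also did not pass without knockout replicate 1 (0.055) or 4 (0.067), nor Nup88 without knockout replicate 1 (0.051).

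Factors that bind DNA together with NFAT were higher at 4 of 13 (12.5% over all genes) and lower at 3 (13%). The muscle and vessel factors Mef2c and Mef2a stood at -1.33 ± 0.23 (SE; limma, adjusted p = 0.0045) and -1.40 ± 0.33 (0.015), while Mef2d rose by 0.84 ± 0.23 (0.026). Gata4, Foxp3 and Gata3 rose by 0.86, 0.65 and 0.91 log2 units, with an adjusted p of 0.032, 0.038 and 0.039. Maf stood at -1.57 ± 0.48 (adjusted p = 0.042), and at -0.93 without knockout replicate 4, which had 2.69 where knockout replicates 1 and 3 had 4.601 and 4.643. Mef2c kept its call with each array left out. The other 6 lost theirs without control replicate 1 (adjusted p = 0.069 to 0.14) or control replicate 3 (0.059 to 0.15), leaving 0 higher and 1 lower. Gata3, Gata4, Foxp3 and Maf did not pass without control replicate 4 (0.066 to 0.099), Gata3 and Gata4 not without knockout replicate 1 (0.063 and 0.0625), these and Foxp3 not without knockout replicate 3 (0.051 to 0.062), and Mef2d and Foxp3 not without knockout replicate 4 (0.061 and 0.085).

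The NF-kappaB genes carry the domain that NFAT proteins share. All 4 measured here passed the threshold (25.5% over all genes), 3 of them higher and 1 lower. Nfkb2, a subunit of the non-canonical pathway, had 5.63, 4.87 and 5.42 in knockout replicates 1, 3 and 4, against 3.68, 4.00 and 3.88 in control replicates 1, 3 and 4 (1.46 ± 0.24 SE; limma, adjusted p = 0.0040). Its partner Relb rose by 1.01 ± 0.24 (adjusted p = 0.015) and the canonical subunit Rela by 0.78 ± 0.20 (0.020). Rel, the lymphocyte subunit, went the other way at -1.52 ± 0.41 (adjusted p = 0.026). Relb, Rela and Rel did not pass without control replicate 1 (adjusted p = 0.058 to 0.098) or control replicate 3 (0.072 to 0.082), and Rel not without control replicate 4 (0.076), knockout replicate 3 (0.073) or knockout replicate 4 (0.064) either, so that Nfkb2 alone passed with each array left out.

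Genes next to the targeted locus were read as well. Of the 3 measured protein-coding neighbours on each side of Nfat5 in the RefSeq order, 1 of 6 passed (25.5% over all genes). Nob1, which matures the small ribosomal subunit, had 3.36, 3.69 and 3.83 in knockout replicates 1, 3 and 4, against 4.05, 4.49 and 4.46 in control replicates 1, 3 and 4 (-0.71 ± 0.22 SE; limma, adjusted p = 0.042). Nob1 lost its call without any 1 of the controls (adjusted p = 0.057 to 0.15), without knockout replicate 1 (0.092) or without knockout replicate 3 (0.068). The closest gene after Nfat5, the quinone reductase Nqo1, stood at -0.53 ± 0.26, and the closest before it, the cytochrome gene Cyb5b, at -0.89 ± 0.33, with overlap for Nqo1 and none for Cyb5b. Nqo1 was -0.29 without control replicate 4. Cyb5b was -0.48 without knockout replicate 4 and passed without knockout replicate 3 (-1.12, adjusted p = 0.048). The telomere protein gene Terf2 stood at -0.64, the ubiquitin ligase Wwp2 at -0.17 and Tmed6 at 0.04. Terf2 was -0.36 without knockout replicate 1 and passed without knockout replicate 3 (-0.87, adjusted p = 0.046), and Wwp2 turned to 0.20 without knockout replicate 1. Log2 fold changes of these neighbours thus ranged from -0.89 to 0.04, all smaller in size than that of Nfat5.

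Genes with the array profile most like that of each member were found among 18873 other protein-coding genes, by the root mean square difference of mean-centred log2 values over the 6 arrays. Nearest to Nfat5 were Pign, an enzyme of GPI anchors (0.12 log2 units), the zinc finger gene Zbtb41 (0.13), the circadian factor Clock (0.13), Zfp871 (0.14) and Arhgef6, an exchange factor for Rac (0.15). Clock had 5.48, 5.77 and 5.12 in knockout replicates 1, 3 and 4, against 7.82, 7.54 and 7.62 in control replicates 1, 3 and 4, and like Nfat5 it was lowest in knockout replicate 4. Nfatc3 was at 0.43 from Nfat5, the nearest of the family, and the other 3 at 1.33 to 1.48. Nearest to Nfatc3 were Map3k20 (0.06), Agtpbp1 (0.07) and Tfg (0.07). Nearest to Nfatc1 were Snn, Jmjd4 and Mamstr (all 0.07), and nearest to Nfatc2 were Rnf224, Hunk and Dgki (0.06 to 0.07). Nearest to Nfatc4 were Tmem51 (0.06), Nags (0.07) and Slc5a4a (0.08). Within the family, Nfatc1 and Nfatc2 were the closest pair at 0.25. With 2 groups of 3 arrays, these profiles are mostly the difference between the groups, so they describe genes of a like fold change and array order.

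**Figure D5:**
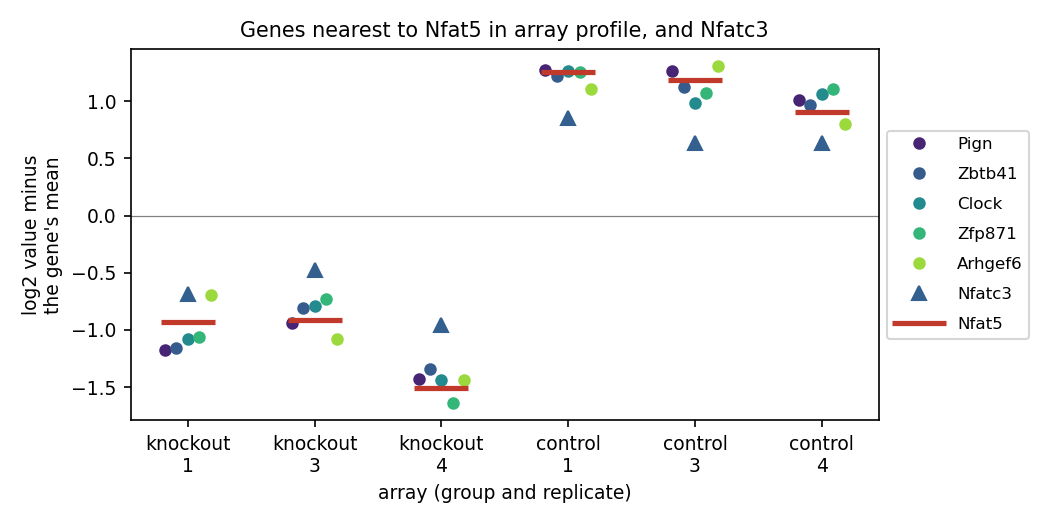
The y axis gives each gene's log2 value minus its mean over the 6 arrays named on the x axis, knockouts left. Red bars are Nfat5, circles its 5 nearest genes and triangles Nfatc3. All lie below 0 in the knockouts and above 0 in the controls, with Nfatc3 closer to 0 than Nfat5 on each array.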

How the data were processed

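The authors deposited 1 table of log2 expression per probe set for 6 arrays, made with RMA as the submitters' processing notes record; the sources used here do not give the version or genome build. All columns had the same quantiles to rounding, but the column of control replicate 1 contained 24668 different values where the others contained 10964. No detection calls were included, and precision is limited by the number of arrays. The platform annotation gave 1 symbol to 24705 of 25428 probe sets, several to 0 and none to 723; the brighter was kept for 1 symbol with more than 1 probe set. RefSeq GRCm38.p6 gave biotype, length, gene order and promoters. limma 3.58.1 in R 4.3.3 (lmFit, eBayes) compared EC knockout with control over 24704 genes without a filter, and was tested on simulated data. The members and lists were chosen with earlier results of these data known. Named were the members, up to 4 list genes of smallest p, list genes past the threshold where a direction held 5 or fewer, 3 neighbours of Nfat5 on each side, and the genes of nearest profile (5 for Nfat5, 3 for others); lung markers and genes that did not pass were added after their values were seen. Listed genes without a probe set were not analysed here. Alternatives covered filters on level, normalization, variance model, array weights, a replicate block, Xist, gene length (lowess, span 0.3), the genes tested and leaving out each array. Promoter stretches ended at the start of the gene's RefSeq span.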

Additional observations from a re-analysis of the deposited data

How the results depend on the processing

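Nfat5 and Nfatc3 kept direction and call under 17 alternatives, of which 2 (repeated quantile normalization and averaged probe sets) could not move a member, with an adjusted p (limma) of at most 0.018 and 0.024. Nfatc1 kept its direction but lost its call with an intensity trend (0.68, adjusted p = 0.058) and with Xist as a covariate (0.66, 0.14), a setting close to leaving out control replicate 1, and lay between 0.55 and 0.79 when 1 array was left out. With the replicate block it also lost its call (0.68, adjusted p = 0.070). Same-numbered arrays correlated in their deviations from the group means at 0.06, -0.01 and 0.004, and arrays of different numbers at -0.11 to 0.11. With 3 arrays per group, these values cannot tell whether same-numbered samples shared more than a number. Nfatc2 passed with the length trend removed (1.07), where Nfatc4 turned to -0.001; left-out arrays gave 0.38 to 0.87 for Nfatc2 and 0.07 to 0.48 for Nfatc4. The counts of all genes were 1386 higher and 1441 lower with Xist as a covariate, and 1391 to 3037 higher and 1491 to 3122 lower with 1 array left out. Of 61 listed genes past the threshold, 37 lost their call when Xist was a covariate, 10 after removal of the length trend (Rcan2, Orai3, Foxp3, Tnf, Rela, Erg, Emcn, Cd79a, Fcmr and Abcc9) and 5 with the replicate block (Plcg2, Gata3, Foxp3, Cd22 and Fcmr), and 0 changed sign. Of 85 listed genes not past the threshold, 7 passed after removal of the length trend (Rcan1, Itpr3, Plcg1, Ddx5, Ctsk, Cd247 and Cd79b), and 0 to 11 passed with 1 array left out. The cause of these shifts was not tested. Values near the lower quartile of 2.02 have no known background.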
